A study of Mus musculus with 12 samples.

Results

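Fusion of insulin granules with the plasma membrane was examined at the level of its genes. A list of 56 genes of the SNARE and exocytosis machinery, without the Rab GTPases themselves, was followed through islets of newborn and young adult mice with and without a functional *Aldh1b1* gene, which encodes a mitochondrial aldehyde dehydrogenase. The genes were chosen by name, with earlier results of these data known, and all 56 were found among the 18351 genes measured. They comprised 10 SNARE proteins, 4 genes for NSF and its SNAP adaptors, 3 genes of the Munc18 and tomosyn families, 2 complexins, 12 synaptotagmins and Doc2 proteins, 10 priming and active zone proteins, 9 Rab effectors of granules and 6 vesicle membrane proteins and synapsins.

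Islet mRNA was sequenced from wild-type mice and from mice homozygous for the *Aldh1b1* tm1lacZ knock-in allele (null mice), on postnatal day 1 (P1) and in week 8. Each of the 4 groups held 3 libraries. The null allele is present in every cell of the animal, so that no group separates islet cells from the rest of the body. The islets were freshly isolated and kept briefly in culture medium before RNA extraction. A P1 library pooled islets of 3 mice, whereas a week 8 library came from 1 mouse, so age, pooling and the series in which libraries were made cannot be told apart.

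Regulated exocytosis runs through a short chain of proteins. Rab effectors hold granules near the plasma membrane, priming factors assemble the SNARE bundle from a vesicle SNARE (VAMP) and 2 plasma membrane SNAREs (a syntaxin and a SNAP-25 family member), and synaptotagmins trigger fusion when calcium enters. NSF and its adaptors then take spent SNARE bundles apart. Beta cells use many of the same genes as neurons for this, and pancreatic acinar cells, which release digestive enzymes from zymogen granules, use a partly different set that includes VAMP8.

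Library composition is given first because it differed between the genotypes at both ages. Its part in the later results was not tested directly. Reads assigned to genes ranged from 15212080 to 29248285 per library. *Aldh1b1* had 87, 86 and 121 reads in P1 wild-type libraries and 0, 0 and 3 in P1 null libraries, and 40, 92 and 61 against 1, 0 and 0 at week 8. Acinar markers, a list of 29 measured digestive enzymes and acinar regulators, took 46.3 to 51.8% of the reads of week 8 wild-type libraries, which were labelled as islets, and 11.9 to 22.5% of those of week 8 null libraries. At P1 the order was the opposite, with 2.13 to 6.63% in wild-type and 10.8 to 24.8% in null libraries. Pan-endocrine markers (14 genes such as *Chga*, *Scg2* and *Neurod1*) took 0.398 to 0.720% of reads in week 8 wild-type libraries against 1.47 to 1.69% in week 8 null libraries, and 1.24 to 1.44% against 0.504 to 0.915% at P1. In such bulk samples fewer cells of a type and less RNA per cell cannot be told apart. P1 wild-type replicate 1 also stood apart from replicates 2 and 3, as 10 of 52 exocytosis genes (19.2%) with a mean of at least 50 were under 0.5 of the mean of the other two, against 8.61% of 12848 genes of that abundance.

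The exocytosis genes together took 0.128 to 0.185% of reads in week 8 wild-type and 0.377 to 0.437% in week 8 null libraries, without overlap. At P1 the shares were 0.342 to 0.444% in wild-type and 0.229 to 0.330% in null libraries, again without overlap and in the opposite order. Set against the reads of the pan-endocrine markers in the same library, the exocytosis genes amounted to 25.6 to 33.9% of them in week 8 wild-type and 25.6 to 28.2% in week 8 null libraries, so the 2 genotypes overlapped. At P1 the corresponding shares were 23.7 to 35.7% and 36.1 to 45.4%, higher in every null library.

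Promoter sequence was inspected because the repressor REST is known to silence several neuronal exocytosis genes outside neurons and endocrine cells by binding RE1 elements. RefSeq promoters (GRCm38.p6, 250 bases before to 50 bases after the start site) were matched for 44 of the 56 genes, with 54 promoters. The left arm of the element (TTCAGCACC) and its right arm (GGACAGCG) were searched on both strands. The left arm was found in 0.371% and the right arm in 1.26% of 32851 promoters, and each was found in 2 of the exocytosis genes. The cyclic AMP response element (TGACGTCA) was also searched. It was found in 1.79% of all promoters and in 2 of the exocytosis genes, *Napa* and *Syn1*, of which *Napa* did not pass at week 8. Windows are shown for every exocytosis gene with an RE1 arm, *Unc13a*, *Syn1* and *Rimbp2*. All were among the 26 of 55 tested exocytosis genes higher in week 8 null islets, but *Unc13a* was at -0.15 with pan-endocrine scaling. Any part of REST in these levels was not tested. Capitals mark the arms, and the *Unc13a* window carries both of them in reverse complement, 8 bases apart, from base 6 to base 30 after the start site.
*Unc13a*, chr8:71671727-71671751, minus strand: CGCTGTCCgcgcccccGGTGCTGAA
*Syn1*, chrX:20921132-20921160, minus strand: cactgtcggaTTCAGCACCgcggtcagag
*Rimbp2*, chr5:128953605-128953634, minus strand: cattgcctggtGGACAGCGgccctgatgtc
Such matches describe letters in a window and not binding.

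Levels of different genes were compared as normalized counts per kb of transcript. *Syt13*, which encodes a synaptotagmin without the usual calcium-binding residues, was the highest in all 4 groups, at 1689 ± 345 (SD, n = 3) per kb in week 8 wild-type and 3380 ± 330 per kb in week 8 null islets. In week 8 wild-type islets it was followed by *Napa* (1218 ± 47.8 per kb), encoding the alpha-SNAP adaptor of NSF, and by *Vamp8* at 626 ± 61.9 per kb, *Cplx2* at 601 ± 123 per kb and *Vamp3* at 560 ± 31.0 per kb. The spreads of *Vamp8*, *Cplx2* and *Vamp3* overlapped, so these 3 neighbours were not separated. In week 8 null islets *Vamp8* came only at rank 11 (419 ± 36.6 per kb), and *Sytl4* was at rank 3 (1152 ± 32.5 per kb). At the other end, *Rims1*, *Sytl3*, *Doc2a* and *Rph3a* had under 5 counts per kb in every week 8 group mean. *Rph3a* had 0 reads in all 3 week 8 wild-type libraries, where a count of 0 allows up to 3 reads, and was below the mean of 1 required for testing at week 8.

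**Figure D1:**
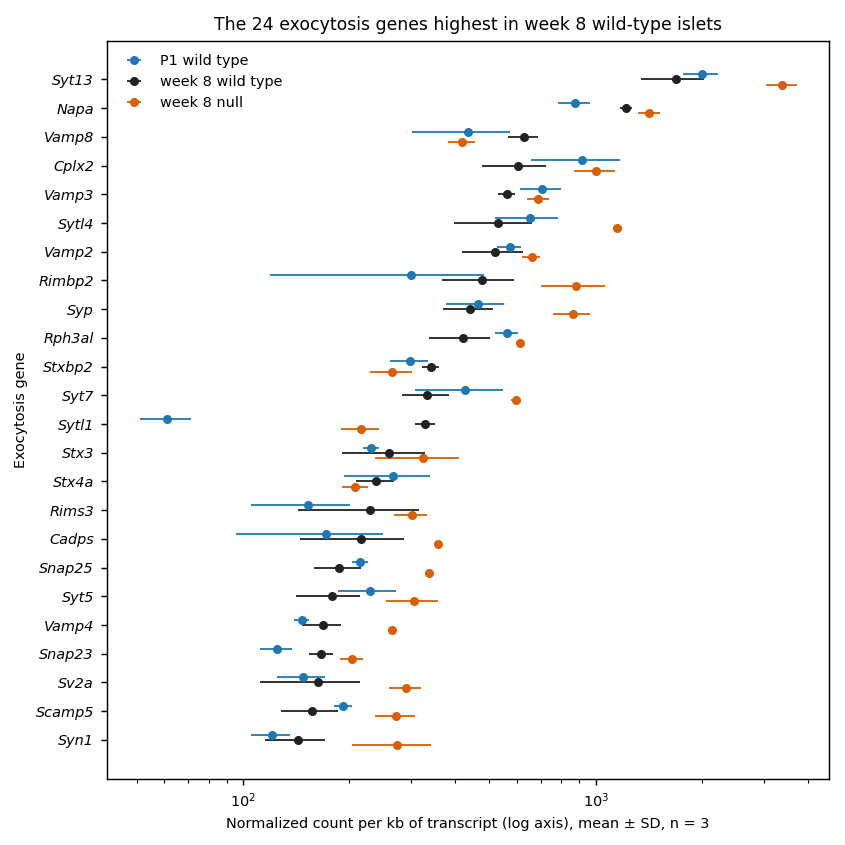
Normalized counts per kb of transcript (log axis, mean ± SD, n = 3) of the 24 exocytosis genes highest in week 8 wild-type islets, in P1 wild-type (blue), week 8 wild-type (black) and week 8 null islets (orange). *Syt13* led all 3 groups, *Sytl1* was at 61.2 per kb in P1 and 329 per kb in week 8 wild-type islets, and *Vamp8* was lower in week 8 null than in week 8 wild-type islets.

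The first question was which exocytosis genes differed between genotypes in young adult islets. At week 8, 26 of 55 tested genes had higher and 6 had lower levels in null than in wild-type islets (limma, adjusted p under 0.05). Over all 18126 genes tested, 12.3% were higher and 15.8% lower, but the list had been chosen with earlier results of these data known. Null and wild-type libraries did not overlap for 31 of the exocytosis genes upward and 7 downward, against 21.5% and 22.1% of all genes. The median log2 fold change of the exocytosis genes was 0.45, against 0.02 over all genes. These calls depended on what the libraries were scaled to. The deposited size factors placed the median gene near 0, whereas scaling to the pan-endocrine markers shifted the median of all genes to -0.74, and with it 0 exocytosis genes were higher and 15 were lower (0 and 19 at an unadjusted p under 0.05), with a median of -0.34, where 0.237% of all genes were higher and 48% lower. Of the 26 higher genes, 16 were still above 0 and 10 were below 0 under that scaling, while the 6 lower genes were lower under both. In the same libraries the pan-endocrine markers themselves were higher in null islets for 12 of 14 genes (median log2 fold change 0.78), and all 29 acinar markers were lower (median -2.46). Beta cell markers were higher for 8 of 10 genes (median 1.03). Alpha cell markers were below 0 for all 6 entries (median -0.35, 0 passing). Delta cell and PP cell markers had medians of -0.10 and -0.45, with 0 higher. Duct markers were lower for 5 and higher for 1 of 7 (median -2.19), and mesenchyme markers were lower for 6 of 6 (median -1.93). The part of islet cell content in the exocytosis results was not tested beyond these scalings. The pan-endocrine markers include granule genes, and a change of these within cells cannot be told apart from cell content. Of the 32 calls, 19 held on leaving out each library in turn. Without wild-type replicate 3 the number of higher exocytosis genes was 17. Over all genes it was then 988 of 18092, against 2234 of 18126 with every library. The calls of *Cadps*, *Cadps2*, *Myrip*, *Rph3al*, *Stxbp5*, *Sv2a*, *Syn1*, *Syn2*, *Syt2*, *Syt3*, *Syt5* and *Syt11* were lost without this replicate. Several of these were also lost without null animal MUT218 or MUT229, as was *Bsn* without MUT229. A joint fit of all 12 libraries gave 15 higher exocytosis genes and 1589 of 18338 over all genes.

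**Figure D2:**
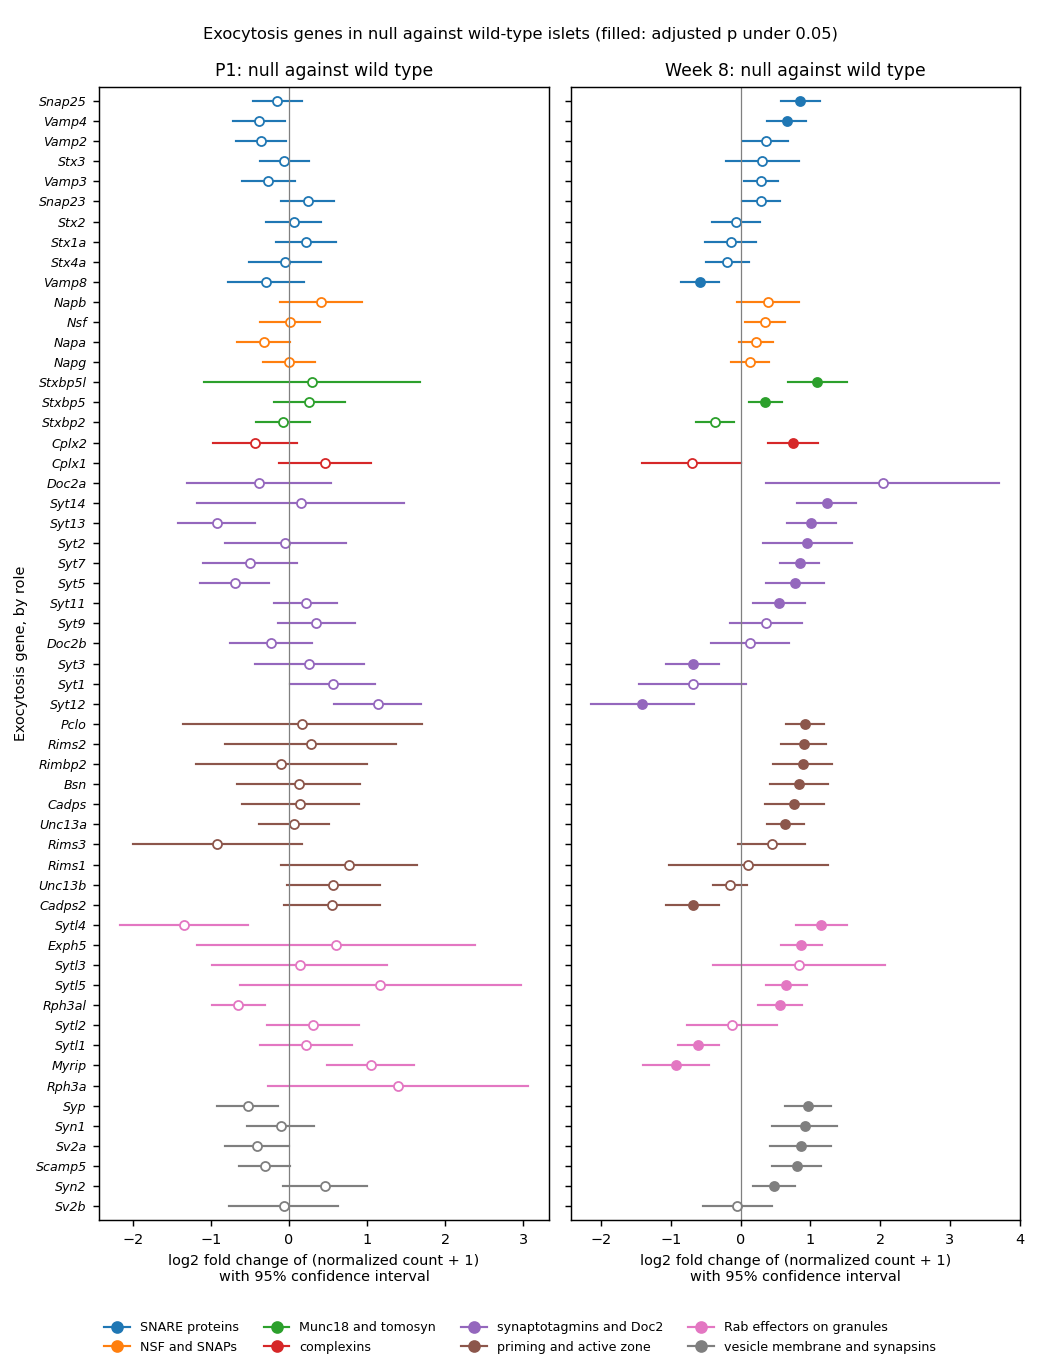
Log2 fold change of null over wild-type islets for each exocytosis gene at P1 (left) and week 8 (right), with 95% confidence intervals and colours by role; filled points passed an adjusted p of 0.05 in limma. At P1 0 of 56 genes passed, and at week 8 26 were higher and 6 lower with the deposited size factors, against 0 higher and 15 lower with pan-endocrine scaling.

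Among the 10 SNARE genes, 2 were higher, 1 was lower and 7 did not pass at week 8. Values of week 8 are given for wild-type replicates 1, 2 and 3 and for null animals MUT218, MUT219 and MUT229, in that order. *Snap25*, encoding the plasma membrane SNARE of neurons and beta cells, had 1246, 1480 and 1092 normalized counts in wild-type and 2225, 2331 and 2309 in null libraries. Every null library was above every wild-type library, and the log2 fold change was 0.86 ± 0.13 (SE, adjusted p = 0.0014), or 0.07 with pan-endocrine scaling. *Vamp4*, a VAMP of the trans-Golgi network and endosomes, was higher by 0.66 ± 0.12 on the log2 scale (adjusted p = 0.00393) and at -0.13 with pan-endocrine scaling.

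*Vamp8*, best known as the VAMP of zymogen granules, went the other way. Its values were 1284, 1502 and 1554 in wild-type and 882, 1052 and 970 in null libraries. The groups did not overlap, and the log2 fold change was -0.58 ± 0.12 (adjusted p = 0.00722), or -1.36 with pan-endocrine scaling. *Vamp2*, the VAMP of insulin granules, had 1652, 2408 and 1876 counts in wild-type and 2364, 2503 and 2659 in null libraries. Its null animal MUT218 lay below wild-type replicate 2, and its log2 fold change of 0.36 did not pass (95% interval 0.04 to 0.68, adjusted p = 0.0903).

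*Stx1a*, the syntaxin that pairs with *Snap25*, had 214, 194 and 233 counts in wild-type and 175, 197 and 208 in null libraries. The groups overlapped, with a log2 fold change of -0.14 (95% interval -0.51 to 0.22, adjusted p = 0.556), and with pan-endocrine scaling it was lower by -0.93 (adjusted p = 0.0149). *Stx3*, a syntaxin of apical membranes that is also present on granules, had 1624, 941 and 1322 counts against 1949, 1127 and 1762. It varied among animals of both genotypes and did not pass (log2 fold change 0.31, 95% interval -0.21 to 0.83, adjusted p = 0.353). *Snap23*, the widely expressed relative of *Snap25*, had 779, 676 and 693 counts against 935, 805 and 891. All 3 null libraries were above the wild-type ones, but the log2 fold change of 0.29 did not pass (95% interval 0.03 to 0.56, adjusted p = 0.096). *Vamp3*, *Stx2* and *Stx4a* had log2 fold changes of 0.29, -0.06 and -0.19 and did not pass either.

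Of the 4 genes that recycle SNARE bundles 0 passed at week 8 in limma, and 1 (*Nsf*) had an unadjusted p under 0.05. *Nsf*, the ATPase, and its adaptor genes *Napa*, *Napb* and *Napg* had log2 fold changes of 0.35, 0.22, 0.39 and 0.14. *Napg* was among the 15 genes lower with pan-endocrine scaling (-0.65).

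Of the 3 Munc18 and tomosyn genes, both tomosyns were higher. Tomosyns bind syntaxin in place of a VAMP and restrain fusion. *Stxbp5l* (tomosyn-2) had 287, 213 and 218.2 counts in wild-type and 647, 454 and 449 in null libraries. Null libraries did not overlap with wild-type ones, and the log2 fold change was 1.1 ± 0.19 (adjusted p = 0.00268), or 0.31 with pan-endocrine scaling. *Stxbp5* (tomosyn-1) was higher by 0.35 ± 0.11 on the log2 scale (adjusted p = 0.0323), at -0.43 with pan-endocrine scaling, and this call was lost on leaving out any one library except wild-type replicate 2. *Stxbp2* (Munc18-2), the partner of syntaxin-3 in epithelia and blood cells, had 1371, 1370 and 1507 counts in wild-type and 1002, 1273 and 1034 in null libraries. All null libraries were lower, but the adjusted p of 0.0515 missed the threshold (log2 fold change -0.37, 95% interval -0.64 to -0.09), and the gene was lower at -1.15 with pan-endocrine scaling.

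The 2 complexins, which clamp and activate SNARE bundles, did not move alike. *Cplx2*, the more abundant of them per kb in all groups, was higher by 0.75 ± 0.16 on the log2 scale (adjusted p = 0.00717), at -0.04 with pan-endocrine scaling. *Cplx1* had 81.0, 80.2 and 49.7 counts in wild-type and 57.1, 33.3 and 38.3 in null libraries. The groups overlapped and the log2 fold change of -0.70 did not pass (95% interval -1.41 to 0.00, adjusted p = 0.127), whereas it was lower at -1.47 with pan-endocrine scaling.

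Synaptotagmins and Doc2 genes, the calcium sensors and their relatives, held 6 higher, 2 lower and 4 genes that did not pass out of 12. *Syt7*, the high-affinity calcium sensor of islet granules, had 2155, 2723 and 2078 counts in wild-type and 4024, 4298 and 4105 in null libraries. Each null library was well above each wild-type one, by 0.85 ± 0.13 on the log2 scale (adjusted p = 0.00143), or 0.06 with pan-endocrine scaling. *Syt13* had 5558, 7849 and 5654 counts in wild-type and 11420, 13900 and 12812 in null libraries. Its log2 fold change was 1.01 ± 0.16 (adjusted p = 0.00176), or 0.23 with pan-endocrine scaling, and the groups were far apart. *Syt14*, another member without the calcium-binding residues, had 111, 142 and 98.1 counts against 267, 254 and 299. This was a log2 fold change of 1.23 ± 0.19 (adjusted p = 0.00168), or 0.45 with pan-endocrine scaling, the highest among the called exocytosis genes.

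*Syt5* (0.78), *Syt11* (0.55) and *Syt2* (0.95) were also higher on the log2 scale, of which *Syt5* and *Syt11* were below 0 with pan-endocrine scaling. *Syt3*, a sensor of the plasma membrane, had 265, 233 and 253 counts in wild-type and 150, 179 and 139 in null libraries. The null libraries were all lower, with a log2 fold change of -0.69 ± 0.17 (adjusted p = 0.0144) and -1.47 with pan-endocrine scaling, although the call was lost without wild-type replicate 3 or null animal MUT218 or MUT229. *Syt12*, named here after its values were seen because its mean was under 50, had 64.8, 47.9 and 51.1 counts against 24.2, 14.3 and 22.4. It had the lowest log2 fold change of the called exocytosis genes, -1.41 ± 0.33 (adjusted p = 0.0115), and -2.16 with pan-endocrine scaling. *Syt1*, the fast sensor of synapses, had a log2 fold change of -0.69 with overlapping groups (95% interval -1.45 to 0.07, adjusted p = 0.163). *Syt9* and *Doc2b* had log2 fold changes of 0.36 and 0.14 and *Doc2a*, with 0 to 6 reads in wild-type and 8 to 17 in null libraries, one of 2.04, and none of these 3 passed.

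Priming and active zone genes held 6 higher, 1 lower and 3 genes that did not pass out of 10. *Unc13a* (Munc13-1), which opens syntaxin for SNARE assembly, had 1127, 1245 and 1016 counts in wild-type and 1680, 1668 and 1928 in null libraries. The groups did not overlap, and the log2 fold change was 0.64 ± 0.12 (adjusted p = 0.00407), or -0.15 with pan-endocrine scaling. *Rims2*, encoding a RIM scaffold that ties Rab3 and calcium channels to the release site, had 467, 473 and 363.2 counts against 768, 908 and 755. Again all null libraries were higher, by 0.90 ± 0.15 on the log2 scale (adjusted p = 0.00201), or 0.12 with pan-endocrine scaling. *Pclo* (piccolo), a very large scaffold of the same site, had 1054, 1177 and 1011 counts against 1789, 2248 and 2133. It had the smallest adjusted p of the exocytosis genes, 0.000922, with a log2 fold change of 0.92 ± 0.12, or 0.14 with pan-endocrine scaling.

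*Rimbp2*, encoding a partner of RIM and calcium channels, the scaffold gene *Bsn* (bassoon) and *Cadps* (CAPS-1), a priming factor of dense-core granules, were higher by 0.89, 0.84 and 0.77 on the log2 scale, and of these only *Cadps* was below 0 with pan-endocrine scaling (-0.01). *Cadps2*, the second CAPS gene, had 333, 313 and 343 counts in wild-type and 185, 254 and 181 in null libraries. It was lower without overlap, by -0.69 ± 0.17 (adjusted p = 0.0152) and -1.47 with pan-endocrine scaling, although the call was lost without wild-type replicate 3 or null animal MUT218 or MUT229. *Unc13b* (Munc13-2), *Rims1* and *Rims3* had log2 fold changes of -0.15, 0.11 and 0.45 and did not pass.

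Rab effectors that hold granules at the membrane or on actin were divided, with 4 higher, 2 lower and 2 that did not pass out of 8 tested. *Sytl4* (granuphilin), which docks insulin granules through Rab27a and syntaxin-1, had 2601, 3420 and 2087 counts in wild-type and 5889, 5742 and 6074 in null libraries. All null libraries were higher, with a log2 fold change of 1.16 ± 0.16 (adjusted p = 0.00115), or 0.37 with pan-endocrine scaling. *Exph5* (Slac2-b), another Rab27 effector, had 449, 518 and 420 counts against 867, 899 and 766. It was higher by 0.87 ± 0.13 on the log2 scale (adjusted p = 0.00149), or 0.08 with pan-endocrine scaling.

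*Sytl5* and *Rph3al* (Noc2) were higher by 0.66 and 0.56 on the log2 scale and both were below 0 with pan-endocrine scaling. The lower genes were *Sytl1* and *Myrip*. *Sytl1* (Slp1), a relative of granuphilin that is known on zymogen granules, had 767, 859 and 859 counts in wild-type and 481, 616 and 539 in null libraries. All null libraries were lower, by -0.61 ± 0.13 (adjusted p = 0.00771) and -1.39 with pan-endocrine scaling. *Myrip*, which links Rab27a to myosin and actin, had 237, 187 and 232 counts against 92.0, 144 and 114. Its groups did not overlap either, with a log2 fold change of -0.92 ± 0.21 (adjusted p = 0.0105) and -1.70 with pan-endocrine scaling, a call that was lost without wild-type replicate 3. *Sytl2* and *Sytl3* did not pass, with log2 fold changes of -0.12 and 0.84.

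Among 6 genes of the vesicle membrane and its synapsins, 5 were higher and 1 did not pass. *Syp* (synaptophysin), an abundant vesicle membrane protein used as a marker of endocrine cells, had 2358, 2642 and 1900 counts in wild-type and 4756, 3855 and 4838 in null libraries. The groups were well apart, with a log2 fold change of 0.97 ± 0.15 (adjusted p = 0.00159), or 0.18 with pan-endocrine scaling. *Syn1* and *Syn2*, which tether vesicles to actin, *Sv2a*, a vesicle glycoprotein gene, and *Scamp5*, a secretory carrier gene, were higher by 0.92, 0.48, 0.86 and 0.80 on the log2 scale, of which only *Syn2* was below 0 with pan-endocrine scaling. *Sv2b*, the second SV2 gene, had a log2 fold change of -0.05.

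**Figure D3:**
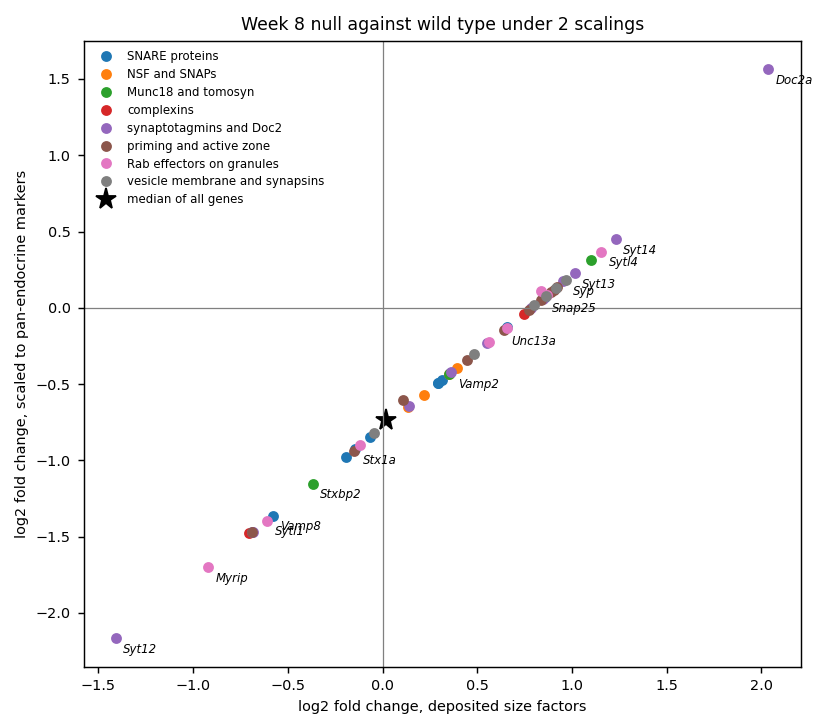
Week 8 log2 fold change of null over wild-type islets for 55 exocytosis genes with the deposited size factors (horizontal) and with pan-endocrine scaling (vertical), coloured by role; the star marks the median of all genes (0.02 and -0.74). *Syt14*, *Sytl4* and *Syt13* lay above 0 on both axes, *Unc13a* lay above 0 on the horizontal and below 0 on the vertical axis, and *Syt12*, *Myrip*, *Sytl1* and *Vamp8* lay below 0 on both.

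A ratio of 2 genes within a library does not depend on the scaling. It can still depend on the mix of cells in that library, which differed between genotypes, and this part was not tested. Such ratios of counts per kb were taken for 11 pairs of members, of which 9 did not overlap between genotypes at week 8 and 2 overlapped. These pairs were chosen after the values were seen, so the ratios are given as a description without a test. *Unc13a* over *Unc13b* was 1.23, 1.31 and 1.02 in wild-type and 2.09, 1.96 and 2.08 in null libraries. *Cadps* over *Cadps2* was 5.43, 9.44 and 4.87 against 19.1, 14.1 and 19.5.

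The complexin ratio also differed at week 8, with *Cplx2* over *Cplx1* at 13.9, 20.3 and 24.1 in wild-type and 35.1, 76.0 and 53.6 in null libraries. *Sytl4* over *Sytl1* was 1.67, 1.96 and 1.19 against 6.02, 4.58 and 5.54. For the SNAREs, *Vamp2* over *Vamp8* was 0.781, 0.973 and 0.732 against 1.62, 1.44 and 1.66, and *Snap25* over *Snap23* was 1.01, 1.38 and 0.996 against 1.505, 1.83 and 1.64. In each of these 6 pairs the first gene thus had the larger share in null libraries at week 8. *Vamp2* over *Vamp3* overlapped, at 0.731 to 1.19 in wild-type and 0.884 to 1.04 in null libraries, and so did *Stx3* over *Stx1a*, at 2.60 to 4.07 and 3.07 to 5.95. The other 3 pairs that did not overlap were of synaptotagmins, with *Syt7* over *Syt3* at 3.64 to 5.24 against 10.8 to 13.2, *Syt7* over *Syt1* at 10.7 to 25.0 against 45.7 to 47.2, and *Syt13* over *Syt12* at 126 to 242 against 696 to 1435. At P1, 6 pairs overlapped and in 5 the first gene had the smaller share in every null library. The order was thus reversed for *Cplx2* over *Cplx1* (13.1 to 20.8 in wild-type and 5.58 to 12.7 in null libraries), for *Unc13a* over *Unc13b* (0.947 to 1.39 in wild-type and 0.766 to 0.844 in null libraries) and for *Snap25* over *Snap23* (1.55 to 2.07 and 1.22 to 1.38), as well as for *Syt13* over *Syt12* and *Syt7* over *Syt1*.

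**Figure D4:**
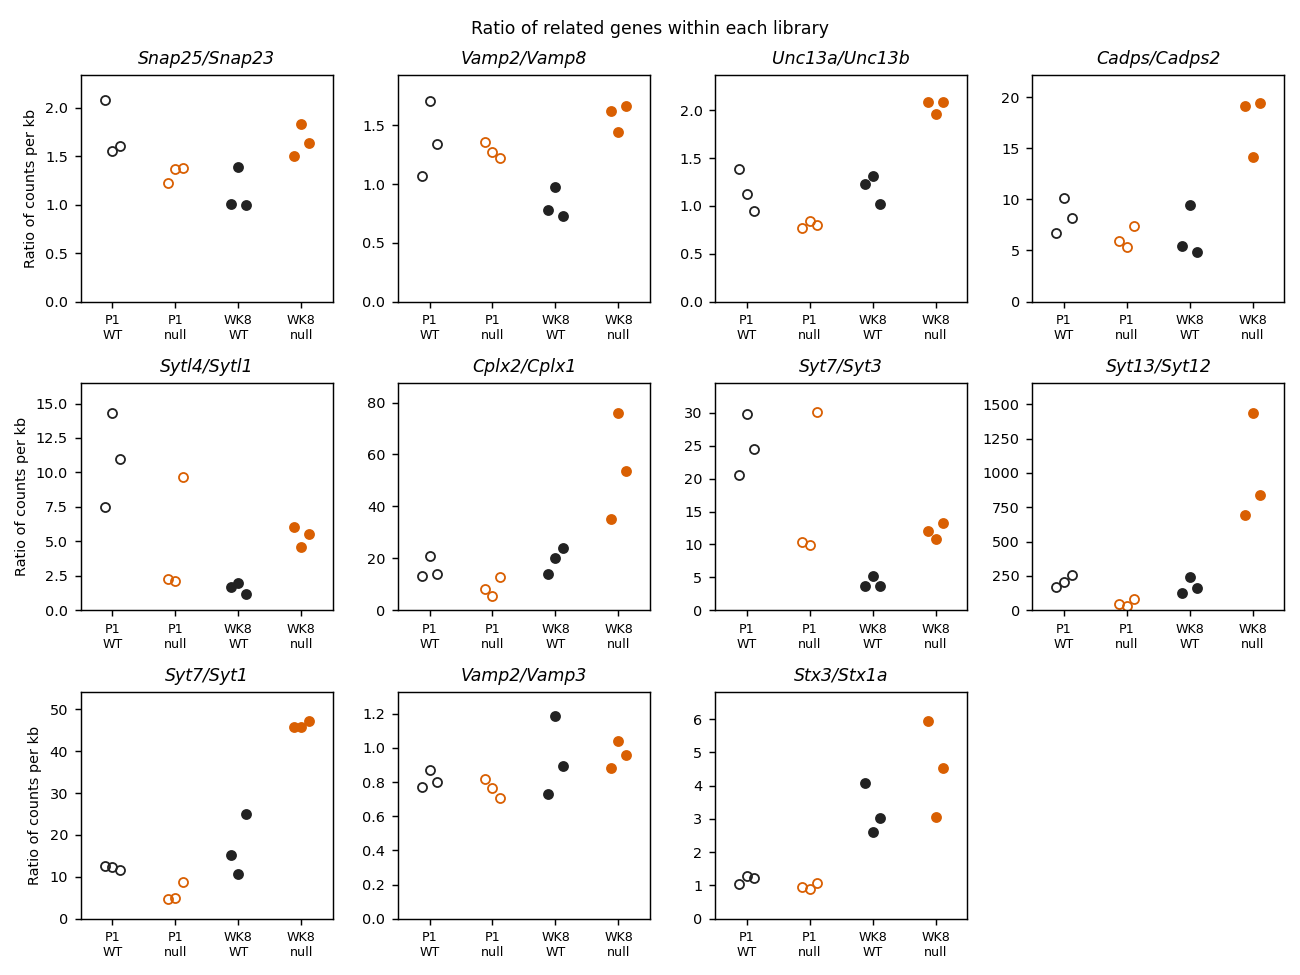
Ratio of normalized counts per kb of 11 pairs of related exocytosis genes in each of the 12 libraries, wild type in black and null in orange, P1 as open and week 8 as filled points. In the week 8 libraries the null values lay above the wild-type values in 9 pairs and overlapped with them for *Vamp2* over *Vamp3* and *Stx3* over *Stx1a*, whereas at P1 6 pairs overlapped.

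The same question was asked in newborn islets. At P1 0 of 56 exocytosis genes passed in either direction (limma), where 0.0548% of 18235 genes were higher and 0.011% lower. At an unadjusted p under 0.05, 3 were higher and 8 lower, against 8.73% and 6.24% of all genes. The edgeR test on recovered reads also called 0, whereas DESeq2 called 2 higher (*Myrip* and *Syt12*) and 4 lower (*Rph3al*, *Syt13*, *Syt5* and *Sytl4*), against 2.36% and 1.27% of all genes. The median log2 fold change of the exocytosis genes was 0.06, against 0.03 over all genes. With pan-endocrine scaling, which moved the median of all genes to 0.79, 30 were higher and 0 lower (32 and 0 at an unadjusted p under 0.05), against 49.1% and 0.159% of all genes. The groups did not overlap for 6 exocytosis genes higher and 11 lower in null islets, where the background was 12.7% and 10.9% of all genes. Pan-endocrine markers were below 0 for all 14 genes at P1 (median log2 fold change -0.82, 0 passing and 12 with an unadjusted p under 0.05) and acinar markers above 0 for all 29 (median 2.66, 2 passing), and their part in the P1 values was not tested.

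Those P1 values are given by role, wild-type replicates 1, 2 and 3 before null replicates 1, 2 and 3. *Snap25* had 1546, 1411 and 1422 normalized counts in wild-type and 1222, 1354 and 1373 in null libraries, a log2 fold change of -0.15 (95% interval -0.46 to 0.16). *Vamp2* had 2373, 2084 and 2058 counts against 1741, 1713 and 1610. For both genes every null library was below every wild-type one, and both were above 0 with pan-endocrine scaling (0.63 and 0.42). *Stx1a* had 624, 473 and 481 counts against 595, 655 and 575, with overlapping groups.

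*Vamp8* had 1350, 740 and 932 counts at P1 in wild-type and 776, 815 and 798 in null libraries, so its spread in wild-type islets was wide. *Snap23* had 471, 574 and 562 counts against 633, 626 and 629, and *Stx3* had 1215, 1143 and 1094 against 1076, 1087 and 1150. *Snap23* was higher in every null library and *Stx3* overlapped. The log2 fold changes of *Vamp8*, *Snap23* and *Stx3* were -0.29, 0.24 and -0.06. With pan-endocrine scaling all of them were above 0 (0.48, 1.01 and 0.72), and *Snap23* and *Stx3* passed.

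Of the regulators of the SNAREs, *Stxbp2*, *Cplx1*, *Stxbp5l*, *Rims2* and *Unc13a* overlapped between genotypes at P1. *Stxbp2* had 1404, 1110 and 1200 counts in wild-type and 1234, 1090 and 1181 in null libraries, and *Cplx1* had 103, 114 and 164 against 168, 219.1 and 137. *Stxbp5l* had 56.2, 369 and 362 counts against 227, 256 and 241, and *Rims2* had 124, 496 and 543 against 339, 378 and 468. In *Stxbp5l* and *Rims2* the low value was that of wild-type replicate 1, and without it their log2 fold changes turned from 0.30 and 0.28 to -0.60 and -0.41. *Unc13a* had 528, 874 and 737 counts against 706, 773 and 709, with the same library lowest.

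*Unc13b*, *Rims1* and the adaptor gene *Napa* did not overlap at P1, although none of the 3 passed. *Unc13b* had 390.4, 803 and 799.8 counts in wild-type and 948, 942 and 913 in null libraries, a log2 fold change of 0.57 (adjusted p = 0.356) that was 0.22 without wild-type replicate 1. *Rims1*, encoding another RIM scaffold, had 11.7, 18.9 and 20.6 counts against 25.8, 43.8 and 21.4 and a log2 fold change of 0.77 (adjusted p = 0.383). In these 2 genes every null library was higher, whereas for *Napa* every null library was lower (log2 fold change -0.32, adjusted p = 0.355, and 0.45 with pan-endocrine scaling).

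*Pclo* and *Exph5* overlapped between genotypes at P1. *Pclo* had 155, 1149 and 1145 counts in wild-type and 553, 516 and 1026 in null libraries, and *Exph5* had 27.0, 262 and 344 against 187, 168 and 278. Wild-type replicate 1 was thus the lowest of the 6 libraries in both, and it was so in 27 of the 56 exocytosis genes, where it was the lowest in 33.1% of the 18235 genes tested. Without this library 2 genes passed in limma, *Rimbp2* (log2 fold change -0.81) and *Rph3al* (-0.70), both lower in null islets. Over all genes 82 of 18219 were then lower.

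*Sytl4* and *Syt13* had the largest differences downward among abundant genes at P1. *Sytl4* had 2559, 3632 and 3803 counts in wild-type and 1046, 828 and 2481 in null libraries. *Syt13* had 6604, 7624 and 8298 counts against 3588, 3108 and 5436. In both, null replicate 3 was closest to the wild-type libraries. This library also had the lowest acinar share of the 3 null libraries (10.8%) and the highest pan-endocrine share (0.915%). Whether these shares bear on the 2 genes was not tested. The log2 fold changes were -1.35 ± 0.36 (adjusted p = 0.166) and -0.93 ± 0.22 (adjusted p = 0.137), and without null replicate 3 both passed in limma (-1.82 with adjusted p = 0.0286, and -1.16 with adjusted p = 0.0402). Over all genes 79 of 18231 were lower without null replicate 3. With pan-endocrine scaling of all 6 libraries *Sytl4* and *Syt13* were at -0.57 and -0.15 and did not pass.

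*Syp* had 2923, 2114 and 2200 counts at P1 in wild-type and 1462, 1700 and 1819 in null libraries, and *Syt7* had 2019, 3552 and 3347 against 1696, 1772 and 2818. *Syp* was lower in every null library, and *Syt7* overlapped, as wild-type replicate 1 lay below null replicate 3. *Syt14* had 19.7, 104 and 112 counts against 56.5, 62.0 and 91.3, again with wild-type replicate 1 lowest. These 3 genes had log2 fold changes of -0.53, -0.50 and 0.15, and all were above 0 with pan-endocrine scaling.

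Among the genes that were lower in null islets at week 8, the P1 values ran the other way without overlap for *Syt12* and *Myrip*. *Syt12* had 58.4, 54.6 and 47.8 counts in P1 wild-type and 121, 144 and 95.01 in P1 null libraries, with a log2 fold change of 1.13 ± 0.25 (adjusted p = 0.117). *Myrip* had 68.6, 100 and 120 counts in P1 wild-type and 211, 190 and 183 in P1 null libraries, with a log2 fold change of 1.04 ± 0.24 (adjusted p = 0.136). *Sytl1* had 168, 124 and 170 counts against 227, 193 and 126, *Syt3* had 43.8, 53.2 and 61.0 against 73.3, 80.2 and 41.9, and *Cadps2* had 126, 197 and 278 against 271, 299 and 270. In these 3 genes the groups overlapped.

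**Figure D5:**
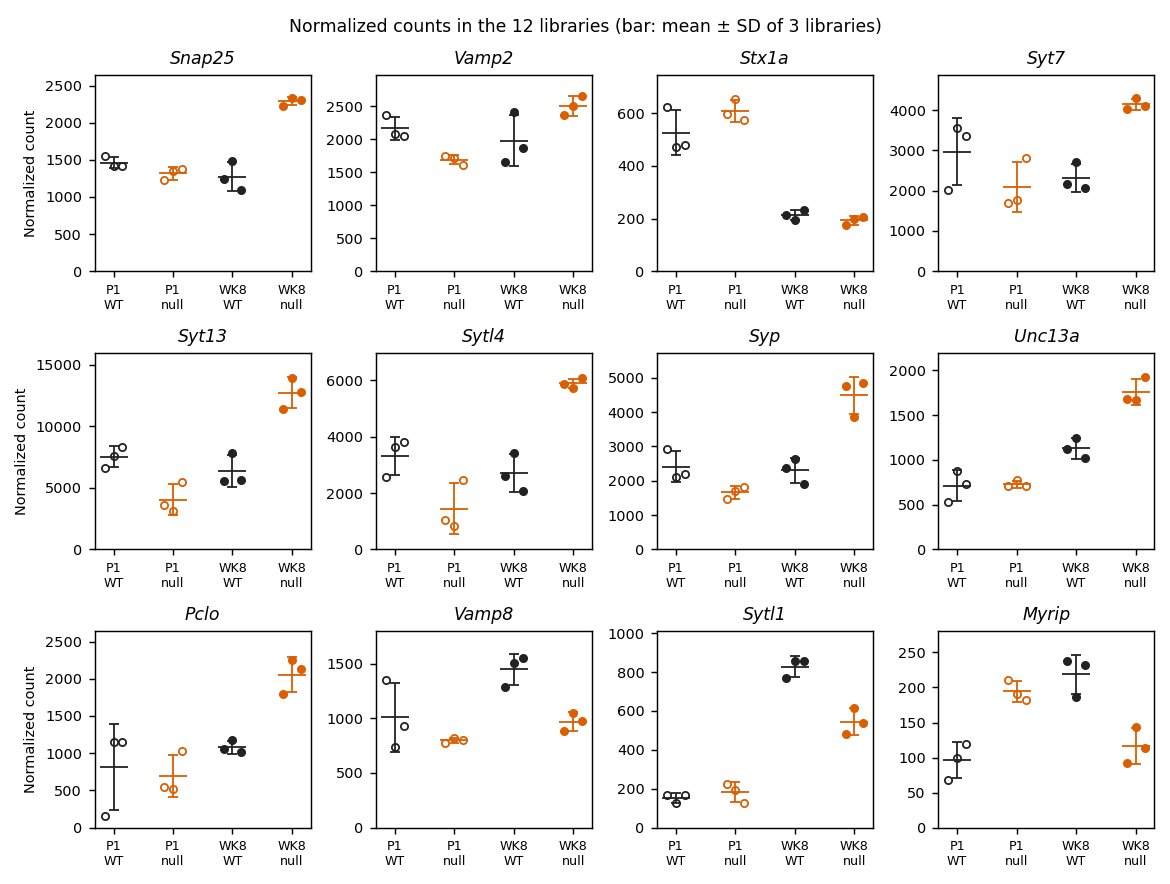
Normalized counts of 12 exocytosis genes in each library, wild type in black and null in orange, P1 as open and week 8 as filled points, with mean ± SD of 3 libraries as bars. At week 8 the null libraries lay above the wild-type libraries for *Snap25*, *Syt7*, *Syt13*, *Sytl4*, *Syp*, *Unc13a* and *Pclo* and below them for *Vamp8*, *Sytl1* and *Myrip*, and at P1 *Syt13*, *Sytl4* and *Syp* were lower and *Myrip* higher in null libraries.

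Whether the null effect differed between the ages was tested as an interaction in 1 fit of all 12 libraries. The null effect was more positive at week 8 than at P1 for 15 of 56 exocytosis genes and more negative for 3 (limma, adjusted p under 0.05), against 8.2% and 13.6% of 18338 genes, and with pan-endocrine scaling, which shifted the median of all genes to -1.52, the numbers were 1 and 30 (0.136% and 71.7% of all genes). The interaction rests on the same libraries as the comparisons within each age. All 15 were below 0 at P1 and above 0 at week 8, and the 3 others (*Syt12*, *Myrip* and *Cadps2*) were above 0 at P1 and below 0 at week 8, with the deposited size factors. Differences were largest for *Sytl4* (2.50 on the log2 scale), *Syt13* (1.94) and *Syp* (1.498) in one direction and for *Syt12* (-2.54) and *Myrip* (-1.96) in the other. With pan-endocrine scaling *Sytl4* (0.94) alone passed in the upward direction, *Syt13* was at 0.38 and *Syp* at -0.07, while *Syt12* and *Myrip* stayed negative at -4.05 and -3.52.

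By role, the 15 genes were 4 SNAREs (*Snap25*, *Vamp2*, *Vamp3*, *Vamp4*), 3 synaptotagmins (*Syt5*, *Syt7*, *Syt13*), 4 vesicle membrane genes (*Scamp5*, *Sv2a*, *Syn1*, *Syp*), 2 Rab effectors (*Rph3al*, *Sytl4*), *Cplx2* and *Napa*. Null libraries were below wild-type ones at P1 and above them at week 8, without overlap at either age, for 10 exocytosis genes, and the opposite held for 2, against 4.29% and 5.32% of all genes tested at both ages. The calls of *Vamp2*, *Vamp3*, *Napa* and *Syn1* were lost on leaving out single libraries, and 14 of the 18 calls held in all such fits. Without P1 wild-type replicate 1 the number of more positive exocytosis genes was 26, where it was 2316 of 18335 over all genes, against 1504 of 18338 with every library. The number of more negative exocytosis genes was 6 without P1 null replicate 3, and 5 without P1 wild-type replicate 1 or week 8 wild-type replicate 3. Over all genes the more negative ones were then 2388, 2911 and 1813, against 2486 with every library.

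Change with age was followed in wild-type islets to describe how the machinery differed between newborn and young adult controls. At week 8, 11 of 56 exocytosis genes were higher and 6 lower than at P1 (limma), against 15.9% and 16.8% of 18338 genes. With pan-endocrine scaling the numbers were 13 and 3 (18.6% and 8.11% of all genes). In a fit of the wild-type libraries alone they were 4 and 4, where 2041 and 2167 of 18287 genes passed over all genes. Acinar markers rose over the same comparison for 28 of 29 genes (median log2 fold change 5.42), pan-endocrine markers were higher for 1 and lower for 5 of 14 (median -0.45), and neuron and glia markers were lower for 5 of 6 (median -1.68). The part of these cells was not tested. Leaving out a week 8 library reduced the higher count to 7 (replicate 1 or 2) or 6 (replicate 3), and leaving out P1 wild-type replicate 1 raised the lower count to 11. Over all genes the higher count was 2498, 2669 and 2277 without week 8 replicates 1, 2 and 3, against 2910 with every library. The lower count over all genes was 3377 without P1 replicate 1, against 3077. Of the 17 calls, 9 held without any one library, namely those of *Doc2a*, *Doc2b*, *Myrip*, *Napa*, *Stx1a*, *Stx2*, *Syt3*, *Sytl1* and *Unc13a*.

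*Sytl1* and *Syt3* rose most with age in wild-type islets, from a mean of 154 to 829 and from 52.7 to 250 normalized counts. These were log2 changes of 2.43 ± 0.21 (adjusted p = 1.72e-06) and 2.24 ± 0.25 (adjusted p = 1.48e-05), without overlap, and of 2.72 and 2.52 with pan-endocrine scaling. Also higher at week 8 under both scalings were *Exph5*, *Myrip*, *Cadps2*, *Napb*, *Unc13a*, *Unc13b*, *Vamp8*, *Napa* and *Snap23*, with log2 changes from 1.76 for *Exph5* to 0.42 for *Snap23*. For *Exph5* the value was 0.61 without P1 wild-type replicate 1.

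Genes that fell with age included SNAREs of the plasma membrane. *Stx1a* fell by 1.29 ± 0.16 on the log2 scale in wild-type islets (adjusted p = 3.06e-05), from 526 to 214 mean normalized counts, and *Stx2* fell by 0.99 ± 0.14 (adjusted p = 0.000127). *Doc2b*, encoding a calcium sensor that binds syntaxin-4 in beta cells, fell by 2.40 ± 0.25 (adjusted p = 6.97e-06), from 553 to 103 counts, and *Doc2a* fell by 3.58 to between 0 and 6 reads. *Cplx1* and *Rph3al* fell by 0.85 and 0.44. All 6 were also below 0 with pan-endocrine scaling, where *Doc2a*, *Doc2b* and *Stx1a* passed.

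In null islets 29 exocytosis genes were higher and 9 lower at week 8 than at P1, against 21.2% and 25.5% of all genes, and with pan-endocrine scaling, which shifted the median of all genes to -1.27, 1 was higher and 30 lower (2.3% and 71.9% of all genes). Over the same comparison pan-endocrine markers were higher for 13 of 14 genes (median log2 fold change 1.00) and beta cell markers for 10 of 10 (median 2.76), while mesenchyme markers were lower for 6 of 6 (median -4.03) and neuron and glia markers for 5 of 6 (median -3.22), and their part was not tested. Of the genes called in both genotypes, 11 had the same sign and 2 (*Myrip* and *Rph3al*) opposite signs. The fall of *Stx1a* (-1.65), *Stx2* (-1.11), *Doc2b* (-2.03) and *Cplx1* (-2.01) was thus seen in null islets too, and these 4 were lower with pan-endocrine scaling as well. A further 25 genes were called in null islets only, among them *Syt1* (-1.96) and *Syt12* (-2.52), both lower at week 8. In wild-type islets these 2 were at -0.71 and 0.02. The interaction passed for *Syt12* but not for *Syt1* (limma, adjusted p = 0.0668).

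Genes next to this machinery were counted for comparison at week 8. Of 20 measured SNAREs of the endoplasmic reticulum, Golgi and endosomes, 1 was higher and 0 were lower in null islets (median log2 fold change 0.14), of 9 exocyst subunits 1 was higher and 0 lower (median 0.30), and of 36 further exocytosis genes 7 were higher and 6 lower (median 0.19), against 12.3% higher and 15.8% lower over all genes (median 0.02). At an unadjusted p under 0.05, 5 of the 20 were higher and 1 lower, 5 of the 9 were higher and 0 lower, and 10 of the 36 were higher and 8 lower, against 19% and 21.1% of all genes. *Syt4*, a synaptotagmin of maturing granules, was among the 7 with a log2 fold change of 1.45. The 6 lower genes included *Rims4* (-2.25) and *Syt15* (-2.30). At P1 0 genes of these 3 lists passed with limma, and at an unadjusted p under 0.05, 4 were higher and 4 lower, against 8.73% and 6.24% of all genes.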

How the data were processed

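Poly(A) RNA of 12 islet libraries was sequenced with a strand-specific kit. The authors deposited a signal for each gene and library, namely reads per gene divided by a DESeq size factor, together with transcript lengths. Tools named in the submitters' processing notes are bedtools 2.11 and DESeq 1.10.1, with mm9 as the genome build. Not given in the sources used here were the aligner, the strand setting of the count and any gene filter. The authors' deposited group means, folds (ratios), log2 folds and p-values were not used. All values were whole multiples of the worth of 1 read within 0.001, so whole reads were recovered for library totals, shares and count tests.

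Genes with a mean of at least 1 were tested with limma 3.58.1 (trend, R 4.3.3) on log2(value + 1), p-values were adjusted over all genes (Benjamini-Hochberg), and the threshold was 0.05, in 1 fit of 6 libraries per age. Fold changes are on that scale, which understates those of low genes. Interaction and age effects came from 1 fit of 12 libraries. Each design had foreseen limma for normalized values. Pan-endocrine scaling divides each library by the level of 14 endocrine marker genes. Other alternatives were edgeR 4.0.16 and DESeq2 1.42.0 on recovered reads, TMM factors with and without acinar markers, pseudocounts of 0.1 and 10, no filter or a mean of at least 50, 1 joint fit, a replicate block and leaving out each library.

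Values in every library are given for 13 core genes (*Snap25*, *Stx1a*, *Vamp2*, *Stxbp5l*, *Syt7*, *Cplx1*, *Rims2*, *Unc13a*, *Sytl4*, *Vamp8*, *Snap23*, *Stx3*, *Stxbp2*) and for up to 8 higher and 8 lower genes per genotype comparison with the smallest adjusted p and a mean of at least 50. The members and lists were chosen with earlier results of these data known. From the list of further exocytosis genes 1 gene is not reported here. No library repeated another of its group, as chi-square per degree of freedom between replicates lay between 12.8 and 108. The limma fits for genotype at each age and for the interaction were run on simulated data with 1 fixed dispersion. That simulation held no difference in cell composition. The edgeR and DESeq2 tests and the age effects were not checked in this way. At week 8 a replicate is 1 animal, and at P1 a pool. Gene counts carry no molecular identifiers, so the allowance for a count of 0 covers counting error only. Plots were drawn with Python 3.11.15 and matplotlib 3.10.9.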

Additional observations from a re-analysis of the deposited data

Results flagged for a closer look

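For 18 exocytosis genes the null effect differed between the ages by the interaction test (limma, adjusted p under 0.05). The difference is given as the week 8 effect minus the P1 effect on the log2 scale, with the deposited size factors. It was positive for *Sytl4* (2.50), *Syt13* (1.94), *Syp* (1.498), *Syt5* (1.48), *Syt7* (1.35), *Sv2a* (1.28), *Rph3al* (1.21), *Cplx2* (1.19), *Scamp5* (1.12), *Vamp4* (1.04), *Syn1* (1.02), *Snap25* (1.01), *Vamp2* (0.72), *Vamp3* (0.56) and *Napa* (0.54). It was negative for *Syt12* (-2.54), *Myrip* (-1.96) and *Cadps2* (-1.24). Over the same test the difference had a median of 1.56 for the 14 pan-endocrine markers, of which 13 passed, and of -5.02 for the 29 acinar markers, all of which passed in the negative direction. The part of these cells in the differences was not tested.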

How the results depend on the processing

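Scaling to pan-endocrine markers changed the numbers of calls more than the other alternatives did, except for age in wild-type islets. There a replicate block and a fit of wild-type libraries alone changed them more. So did leaving out week 8 replicate 3 (6 higher and 4 lower), week 8 replicate 2 (7 and 9) or P1 replicate 1 (9 and 11). Pan-endocrine scaling gave 30 higher exocytosis genes at P1, 0 higher and 15 lower at week 8, 1 and 30 for the interaction, 3 lower with age in wild-type islets, and 1 higher and 30 lower with age in null islets. With it 23 exocytosis genes turned from below to above 0 at P1, and 22 at week 8 and 35 in the interaction turned from above to below 0. Named here are those that passed under either scaling at P1 and week 8 and those that passed with the deposited size factors in the interaction. At P1 they were *Snap25* (0.63), *Stx3* (0.72), *Stx4a* (0.73), *Napg* (0.78) and *Stxbp2* (0.70). At week 8 they were *Vamp4* (-0.13), *Stxbp5* (-0.43), *Syt5* (-0.0037), *Syt11* (-0.23), *Cplx2* (-0.038), *Unc13a* (-0.15), *Cadps* (-0.014), *Rph3al* (-0.23), *Sytl5* (-0.13), *Napg* (-0.65) and *Syn2* (-0.30). In the interaction they were *Snap25* (-0.56), *Vamp2* (-0.85), *Vamp3* (-1.003), *Vamp4* (-0.52), *Syt5* (-0.082), *Syt7* (-0.22), *Cplx2* (-0.38), *Rph3al* (-0.36), *Napa* (-1.02), *Syn1* (-0.54), *Syp* (-0.067), *Sv2a* (-0.29) and *Scamp5* (-0.45). The shift of all genes under this scaling is its own construction, as it sets the endocrine markers level.

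DESeq2 called 2 higher and 4 lower at P1 and 7 lower in the interaction, where edgeR called 5. Over all genes the interaction was lower for 2849 of 17635 in DESeq2 and for 2517 of 18338 in edgeR. All 12 libraries in 1 fit gave 15 higher at week 8. Leaving out each library gave 0 to 2 lower genes at P1, 17 to 31 higher and 4 to 7 lower at week 8, 11 to 26 and 3 to 6 in the interaction, 6 to 13 and 4 to 11 with age in wild-type islets, and 24 to 27 and 6 to 9 with age in null islets. Wild-type libraries alone gave 4 higher and 4 lower with age. The counts over all genes moved as well. Leaving out each library gave 0 to 82 lower genes at P1, and 988 to 2905 higher and 1688 to 3362 lower at week 8. It gave 919 to 2316 and 1809 to 2911 in the interaction. With age it gave 2277 to 3172 and 2592 to 3377 in wild-type islets, and 3095 to 3516 and 3935 to 4343 in null islets. The cause of these changes was not tested, except that fewer libraries entered some fits.

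Same-numbered P1 libraries had correlations of their deviations of 0.063, -0.041 and -0.012, and differently numbered ones ranged from -0.213 to 0.191. Pairing by replicate number was thus not seen, but 3 libraries per group cannot exclude it. With a replicate block 0 exocytosis genes passed at P1, 3 were higher and 4 lower with age in wild-type islets, and 15 and 3 passed in the interaction. Over all genes the block gave 11 higher and 4 lower at P1, 1772 and 1899 with age in wild-type islets, and 1526 and 2454 in the interaction. Pseudocounts, TMM factors and filters kept each count within 1.5 times. Depth limited *Rph3a*, *Doc2a*, *Sytl3* and *Rims1*.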
